A study of Mus musculus with 20 samples.

Results

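The mitochondrial quality control genes described here are 10 nuclear genes for proteases and chaperones that act inside mitochondria, namely Lonp1, Clpp, Clpx, Hspd1, Hspe1, Hspa9, Yme1l1, Afg3l2, Spg7 and Htra2. They were chosen by name, matched to the count tables through their Ensembl identifiers in the GENCODE M21 annotation of GRCm38, and all 10 were found among the 47069 genes of the heart table and the 53801 genes of the skeletal muscle table. RNA was sequenced from hearts of 5 wild-type (WT) C57BL/6N mice and 5 transgenic ROSA26H1/tetO-shRNA:TAZ mice (Taz-KD), and from femur skeletal muscle of 5 further WT and 5 further Taz-KD animals. Each mouse gave 1 library of 1 tissue. All mice, WT included, ate chow with 625 mg/kg doxycycline, which switches on the anti-Taz hairpin in transgenic animals, and were 20 weeks old. Taz encodes tafazzin, the enzyme that remodels the mitochondrial lipid cardiolipin and that is defective in Barth syndrome. The knockdown is systemic, so it is not limited to muscle cells, and the WT animals carry no hairpin. The comparison asks how transcripts for mitochondrial protein quality control differ between the genotypes in each tissue.

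Proteins that enter the mitochondrial matrix pass through the import channel unfolded, are pulled in by the matrix Hsp70 (Hspa9), and fold with the help of the chaperonin barrel (Hspd1) and its lid (Hspe1). Damaged or unassembled proteins are degraded by AAA+ proteases, which are Lonp1 and the pair of Clpx (unfoldase) and Clpp (peptidase) in the matrix, Afg3l2 and Spg7 (paraplegin) in the m-AAA protease facing the matrix, and Yme1l1 (the i-AAA protease) facing the intermembrane space, where the serine protease Htra2 also resides. Genes of this kind are the usual readout of the mitochondrial unfolded protein response, and cardiac and skeletal muscle cells depend on them because they are rich in mitochondria.

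Taz itself was the first check of the labels. Levels are given as CPM, the count of a gene per 1000000 counts of its library after scaling with TMM factors within a tissue. In heart, Taz measured 36.0 to 39.2 CPM in the WT libraries and 11 to 12.9 CPM in the Taz-KD libraries. Muscle libraries of WT mice ran from 45.9 to 54.8 CPM of Taz, those of Taz-KD mice from 12.7 to 15.2 CPM. The Taz-KD mean was thus 30.8% of the WT mean in heart and 26.0% in muscle, the libraries of the genotypes did not overlap in either tissue, and p was 0.00794 in each tissue by an exact two-sided permutation test, the smallest that 5 against 5 libraries allow. Total counts were 26963288 to 30090918 in WT hearts, 30248445 to 35301909 in Taz-KD hearts and 36429399 to 74361382 in muscles, so every Taz-KD heart was sequenced more deeply than every WT heart. Summed endothelial markers (5 genes) were 784 to 953 CPM in WT hearts and 648 to 727 CPM in Taz-KD hearts, without overlap, summed red cell markers (5 genes) were 420.0 to 740.0 and 289 to 457 CPM, and summed skeletal muscle fibre markers (6 genes) were 1006 to 1434 and 1560 to 2409 CPM. Of the latter, Ckm averaged 1022 ± 114 CPM in WT hearts and 1042 ± 109 CPM in Taz-KD hearts, and Acta1 222 ± 129 and 783 ± 400 CPM (SD, n = 5). Tnnt3 averaged 0.674 ± 0.216 and 0.554 ± 0.238 CPM, and Myh4 had no count in hearts. Only 3 of the 6 fibre markers had enough counts to be tested in heart. Of these, Acta1 alone was called (adjusted p = 0.0464, edgeR), so the higher sum is not a rise of the 6 genes together. The 6 cardiomyocyte markers summed to 38371 to 52240 CPM in WT hearts and 37715 to 51688 CPM in Taz-KD hearts. Among muscles, the WT libraries A55 and A33 had the lowest summed fibre markers, with 56126 and 76319 CPM, while all Taz-KD muscles were at 105003 CPM or more. Summed adipocyte markers (5 genes) ran from 15.2 to 761 CPM in WT muscles, highest in A33, and from 2.3 to 49.5 CPM in Taz-KD muscles. Summed Schwann cell markers (4 genes) ran from 114 to 872 CPM in WT muscles, highest in A55, and from 80.4 to 484 CPM in Taz-KD muscles. In such whole-tissue RNA, fewer cells of a type and less RNA per cell cannot be told apart, and the part of cell composition in the results that follow was not tested.

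In GRCm38 the 10 protein-coding genes lie on chromosomes 1, 2, 6, 8, 9, 17 and 18. Lonp1 spans chr17:56614297-56626887 on the minus strand, with Clpp on the same chromosome at chr17:56990305-56996188, and Hspd1 (chr1:55077835-55088243, minus strand) overlaps the start of Hspe1 (chr1:55088132-55091307, plus strand). The genomic neighbourhood of Hspd1 and Hspe1 is shown first because these 2 genes, which encode barrel and lid of one chaperonin, lie head to head on chromosome 1 and moved in the same direction in heart. Sequences come from RefSeq windows of 250 bases before to 50 after a transcript start in GRCm38.p6, in which 7 of the 10 genes have 8 windows; Hspa9, Afg3l2 and Htra2 have none. The letters searched on both strands were TGATGNAA (C/EBP-ATF response element), TGACGTCA (cAMP response element), and the heat shock elements GAANNTTC and TTCNNGAA, which are found in 3.97%, 1.79%, 7.86% and 8.52% of all 32851 windows. Capitals mark matches, and windows without capitals hold none of the searched letters.
Hspe1, chr1:55087898-55088197, plus strand: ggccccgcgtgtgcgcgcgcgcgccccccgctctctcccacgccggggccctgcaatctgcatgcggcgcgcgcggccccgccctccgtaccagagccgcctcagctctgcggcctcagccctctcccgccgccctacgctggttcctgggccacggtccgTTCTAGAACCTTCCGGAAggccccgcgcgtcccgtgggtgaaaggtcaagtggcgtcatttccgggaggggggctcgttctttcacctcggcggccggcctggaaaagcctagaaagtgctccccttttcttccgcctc
Hspd1, first window, chr1:55088194-55088493, minus strand: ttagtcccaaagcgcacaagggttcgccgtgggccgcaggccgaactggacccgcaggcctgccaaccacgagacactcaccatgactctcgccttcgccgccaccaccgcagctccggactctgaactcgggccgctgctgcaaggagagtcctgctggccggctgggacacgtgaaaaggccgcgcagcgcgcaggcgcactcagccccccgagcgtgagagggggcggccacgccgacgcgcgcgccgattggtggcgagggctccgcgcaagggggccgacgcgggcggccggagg
Lonp1, chr17:56626854-56627153, minus strand: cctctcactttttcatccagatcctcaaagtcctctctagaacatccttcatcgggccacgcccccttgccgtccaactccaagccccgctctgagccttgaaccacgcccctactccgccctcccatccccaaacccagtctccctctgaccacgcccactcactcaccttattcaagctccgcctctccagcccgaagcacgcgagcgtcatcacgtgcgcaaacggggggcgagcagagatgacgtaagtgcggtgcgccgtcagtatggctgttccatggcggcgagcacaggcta

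The Hspe1 window holds 3 heat shock elements whose letters interlock with starts 5 bases apart, giving the run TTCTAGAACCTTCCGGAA at chr1:55088059-55088076, which lies 72 to 89 bases before the Hspe1 start. A second, downstream start of Hspd1 reads the same run on the other strand, 127 to 144 bases before that start, whereas the first Hspd1 start lies 95 bases inside Hspe1 and the run falls 167 to 184 bases downstream of it. Such a run of 3 elements is found in 5 of the 32851 windows (0.0152%), 2 of which are these windows of Hspd1 and Hspe1. Of the other windows, that of Clpp holds a single TTCNNGAA, starting at base 34 after its start, and those of Lonp1, Clpx, Spg7 and Yme1l1 hold none of the searched letters. These matches are a description of the letters only.

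In heart, 5 of the 10 genes rose with the Taz knockdown and 1 fell, by the edgeR quasi-likelihood test, Benjamini-Hochberg adjusted over all genes. The genes that rose were Lonp1, Hspa9, Hspe1, Hspd1 and Afg3l2, with log2 fold changes from 2.25 down to 0.55, and Spg7 fell. Clpx, Clpp, Yme1l1 and Htra2 did not pass the test. Among all 19486 genes tested in heart, 14.4% were called higher and 10.3% lower in Taz-KD. Every Taz-KD heart lay above every WT heart for the same 5 genes that rose, against 11.3% of all genes, and none of the 10 lay fully below, against 7.05% of all genes. The median log2 fold change was 0.41 over the 10 genes and -0.02 over all genes.

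**Figure D1:**
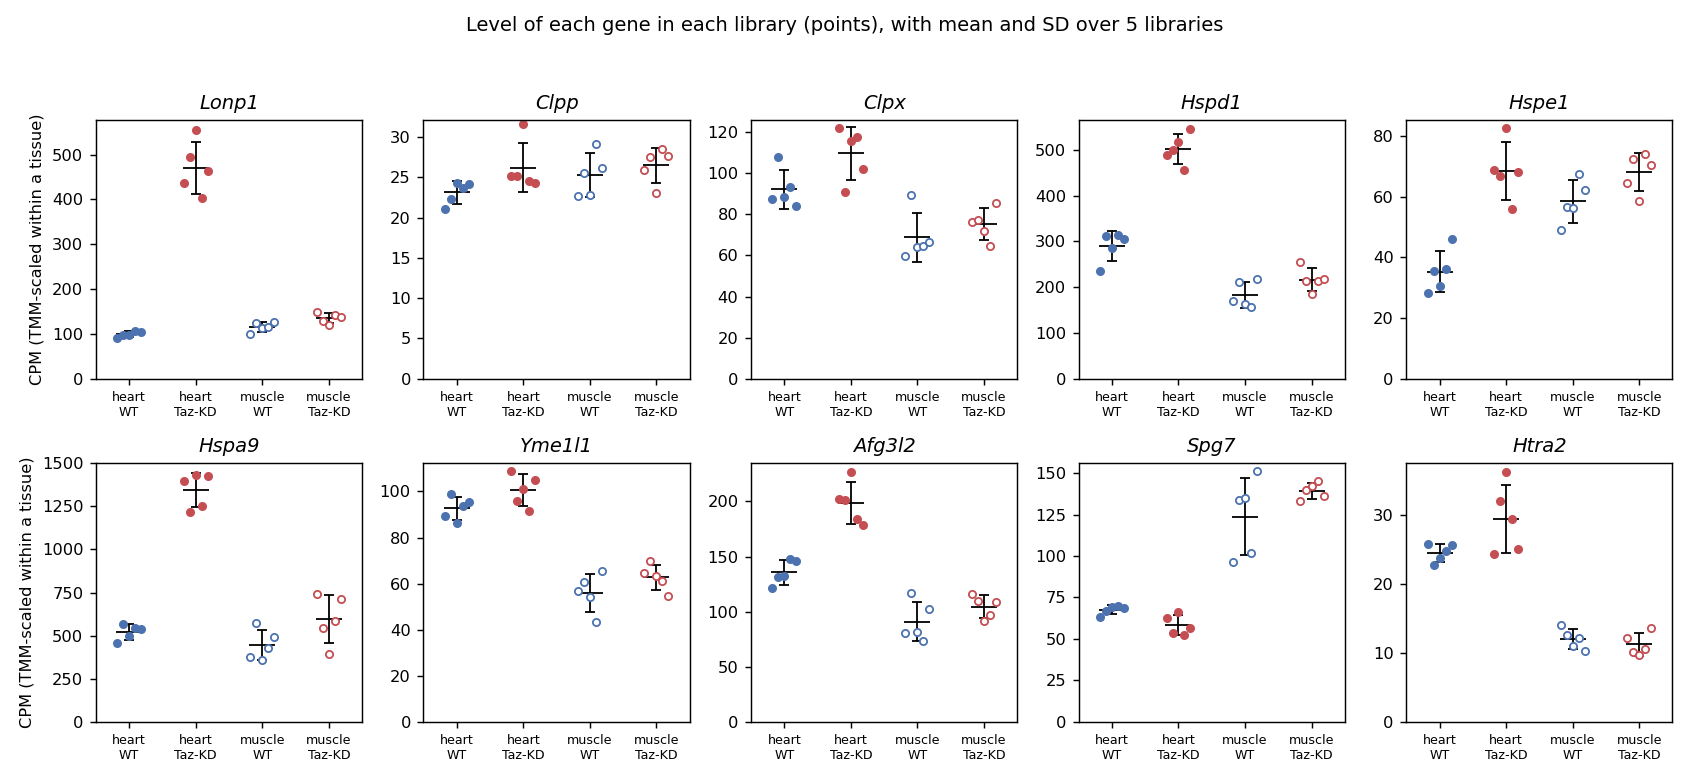
Each panel shows 1 gene, with TMM-scaled CPM on the vertical axis and the 4 groups on the horizontal axis; points are libraries, and the bar gives mean and SD over 5 libraries. Taz-KD hearts stand apart from WT hearts for Lonp1, Hspa9, Hspe1, Hspd1 and Afg3l2, whereas the muscle groups overlap for all 10 genes.

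Lonp1, the main protease for oxidised and misfolded proteins of the matrix, changed most of the 10 genes. It measured 90.0, 98.3, 96.4, 106 and 104 CPM in the WT hearts R3, R1791, R1792, R1795 and R1800. Taz-KD hearts measured 436, 494, 554, 402 and 463 CPM in R2, R1793, R1796, R1797 and R1798. The lowest Taz-KD heart was thus far above the highest WT heart, and the fold change of 4.75 (log2 2.25, standard error, SE, 0.09, adjusted p = 7.00e-09, edgeR) put Lonp1 at rank 11 of all genes by adjusted p. Its adjusted p stayed at or below 2.26e-07 in all 23 alternative fits of the hearts.

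Hspa9, the matrix Hsp70 that drives import and folding, had the highest level per exon length of the 10 genes in every group. WT hearts measured 456, 569, 500, 543 and 537 CPM in the order of libraries given for Lonp1, and Taz-KD hearts 1396, 1220, 1432, 1254 and 1426 CPM. Again the groups were far apart, with a fold change of 2.58 (log2 1.37, SE 0.08, adjusted p = 1.91e-07, edgeR). Lonp1 and Hspa9 were the 2 genes of the 10 with a fold change above 2 in heart.

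Both chaperonin genes rose in heart. Hspd1 measured 236, 311, 285, 314 and 306 CPM in WT hearts and 490.0, 501, 517, 457 and 546 CPM in Taz-KD hearts, a fold change of 1.73 (log2 0.79, SE 0.08, adjusted p = 3.29e-05, edgeR). Hspe1 measured 28.4, 35.6, 30.5, 36.1 and 46.0 CPM in WT hearts and 69.0, 66.9, 82.7, 56 and 68.2 CPM in Taz-KD hearts, a fold change of 1.94 (log2 0.96, SE 0.13, adjusted p = 0.00031, edgeR). Neither gene's groups overlapped, and WT heart R1800 was the highest WT library for Hspe1. Exons of the pair overlap over 112 bases on opposite strands, which is 4.24% of Hspd1 and 7.60% of Hspe1 exon length, and how the counting treated strand is not given in the sources used here. The pseudogene Hspd1-ps3 had counts equal to 2.07% to 3.25% of those of Hspd1 across hearts and also rose (log2 fold change 0.77, SE 0.14, adjusted p = 0.00152, edgeR), so its reads and those of Hspd1 may not be separable.

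The 2 subunits of the m-AAA protease went in opposite directions. Afg3l2, which can form the complex alone, measured 121, 131, 132, 148 and 146 CPM in WT hearts and 202, 201, 227, 184 and 179 CPM in Taz-KD hearts, a fold change of 1.47 (log2 0.55, SE 0.08, adjusted p = 0.000291, edgeR) without overlap. Spg7, which joins only with Afg3l2 or its relatives, measured 63.3, 66.7, 69.2, 69.8 and 68.6 CPM in WT hearts and 62.7, 53.5, 66.3, 52.5 and 56.5 CPM in Taz-KD hearts. Taz-KD heart R1796 lay inside the WT range of Spg7, and the fall by 0.21 on the log2 scale (SE 0.07, adjusted p = 0.0454, edgeR) was close to the threshold. This call was lost in 11 of 23 alternative fits, among them those leaving out any one of the WT hearts R1791, R1792, R1795 and R1800 or the Taz-KD hearts R1793, R1797 and R1798, with adjusted p up to 0.104 when 1 heart was left out. It was also lost with the animal number series (R2 and R3 against the other hearts) as a term (adjusted p = 0.0627, edgeR) and when hearts and muscles were fitted jointly (adjusted p = 0.276, edgeR).

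Of the genes that did not pass the test in heart, Htra2 (24.5 ± 1.27 CPM in WT, SD, n = 5, and 29.3 ± 4.90 in Taz-KD) had a log2 fold change of 0.26 (SE 0.10, adjusted p = 0.0822, edgeR). Clpx ran from 84.1 to 108 CPM in WT hearts and from 90.8 to 122 CPM in Taz-KD hearts (log2 fold change 0.25, adjusted p = 0.0691, edgeR). Both were called in 3 of 23 alternative fits, Clpx without WT heart R1791, without Taz-KD heart R1793 or with no filter on low counts, and Htra2 without Taz-KD heart R2, without R1798 or without both R2 and R3. Clpp had a log2 fold change of 0.18 (adjusted p = 0.132, edgeR), and Yme1l1 had one of 0.12 (adjusted p = 0.189, edgeR). Clpp was 24.3 to 25.2 CPM in 4 Taz-KD hearts and 31.6 CPM in R1796. Htra2 shares 25.6% of its exon length with Aup1 and 18.2% with Loxl3, both on the opposite strand. How reads in these shared exons were counted is not known here, so the counts of Htra2 may be affected by its neighbours. Aup1 rose by the same log2 fold change of 0.26 (adjusted p = 0.0181, edgeR), which by itself does not show that reads were shared.

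**Figure D2:**
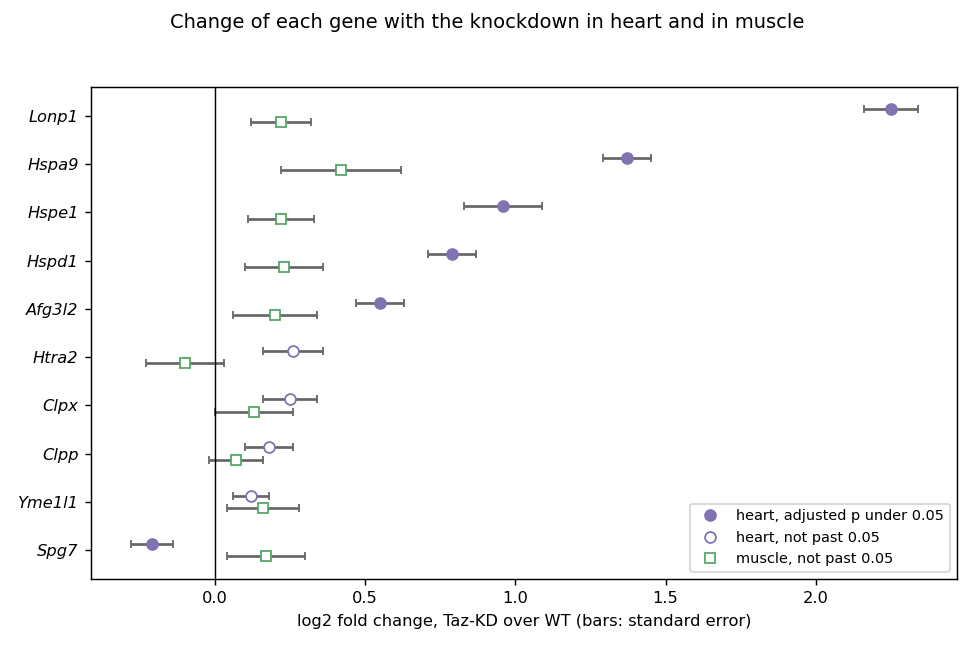
The log2 fold change of Taz-KD over WT (horizontal axis, bars are standard errors) is drawn for each gene in heart (circles) and muscle (squares), filled where the adjusted p is under 0.05. Heart values spread from -0.21 for Spg7 to 2.25 for Lonp1, whereas muscle values lie between -0.10 and 0.42 and none is filled.

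Some libraries were high or low for several of the genes. Taz-KD heart R1796 was the highest of its group for 7 of the 10 genes (Lonp1, Clpp, Hspe1, Hspa9, Afg3l2, Spg7 and Htra2), and WT heart R3 was the lowest of its group for 7 (Lonp1, Clpp, Hspd1, Hspe1, Hspa9, Afg3l2 and Spg7). Within a group the coefficient of variation was modest, with a median over the 10 genes of 7.28% in WT hearts and 11% in Taz-KD hearts, beside 9.08% and 9.40% over all genes of at least 5 CPM. Hspe1 varied most in WT hearts (19.3%) and Htra2 most in Taz-KD hearts (16.7%).

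In muscle, none of the 10 genes passed the test in edgeR, in DESeq2 or in any other alternative. At an unadjusted p under 0.05, edgeR counted 0 of the 10, beside 2408 of all 16145 genes tested in muscle. DESeq2 counted 3 of the 10, and its count over all genes is not given here. The background of adjusted calls was low as well, since 0.0186% of the 16145 genes were called in edgeR, which are the 3 genes Taz, Mthfd2 and Setd5. DESeq2 called 145 genes in muscle, 38 higher and 107 lower, without any of the 10. Values of 9 of the 10 genes were above 0, beside 47.7% of all genes, with a median log2 fold change of 0.19 beside -0.02 over all genes. These values come from the same libraries, so the 10 genes do not count as independent observations. No gene of the 10 had all Taz-KD muscles above all WT muscles, a pattern seen in 1.06% of all genes.

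Lonp1 in muscle measured 98.4, 125, 113, 114 and 127 CPM in the WT muscles A33, A40, A51, A55 and A57, and 148, 128, 119, 142 and 137 CPM in the Taz-KD muscles A34, A39, A52, A56 and A58. The groups overlapped through A52, and the log2 fold change was 0.22 (SE 0.10, adjusted p = 0.344, edgeR). Hspa9 had the highest value of the 10, a log2 fold change of 0.42 with the widest SE (0.20, adjusted p = 0.352, edgeR). WT muscles measured 374, 575, 361, 429 and 492 CPM of Hspa9 in the same order of libraries, and Taz-KD muscles 739, 546, 393, 587 and 712 CPM. The groups overlapped broadly, with the WT library A40 above the Taz-KD libraries A39 and A52.

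The chaperonin genes gave nearly equal values in muscle. Hspe1 ranged from 49.1 to 67.7 CPM in WT muscles and from 58.8 to 74.1 CPM in those of Taz-KD mice (log2 fold change 0.22, adjusted p = 0.352, edgeR), and Hspd1 157 to 217 and 185 to 255 CPM (log2 fold change 0.23, adjusted p = 0.407, edgeR). The remaining genes ran from -0.10 for Htra2 to 0.20 for Afg3l2, with adjusted p between 0.473 and 0.716 (edgeR). Taz-KD muscle A52 was the lowest of its group for 7 of the 10 genes. Spg7 varied least in Taz-KD muscles (133 to 145 CPM) but ran from 96.6 to 151 CPM in WT muscles, with the lowest values in A33 and A55. Without these 2 libraries the Spg7 value was -0.01 in place of 0.17, and the median of the 10 genes was 0.08 in place of 0.19.

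Whether the response differed between heart and muscle was tested with an interaction term in a joint fit of the 20 libraries. The effect was smaller in muscle than in heart for 3 of the 10 genes, Lonp1, Hspa9 and Hspe1, while 3.07% of all 20612 genes passed in this direction. For Lonp1, the muscle effect minus the heart effect was -1.96 on the log2 scale (SE 0.15, adjusted p = 5.82e-07, edgeR), which was the smallest adjusted p of all genes, and the call held in all 30 alternatives. Hspa9 differed by -0.89 (SE 0.23, adjusted p = 0.0277, edgeR), a call lost in 5 of 30 alternatives, namely without WT heart R3 or R1792, without Taz-KD heart R2 or R1796, and without R2 and R3 together (adjusted p up to 0.0791). Hspe1 differed by -0.67 (SE 0.19, adjusted p = 0.049, edgeR), and its call was lost in 17 of 30 alternatives, with adjusted p up to 0.116. Leaving out any 1 heart other than R1800 and R1797 ended the Hspe1 call, as did leaving out A40, A51, A34, A52 or A58 among the muscles.

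For the other genes the difference between tissues did not pass the test. Hspd1 differed by -0.49 (adjusted p = 0.116, edgeR) and passed in 5 of 30 alternatives, such as without WT muscle A55 (-0.59, adjusted p = 0.0418, edgeR) or without Taz-KD muscle A34 (-0.59, adjusted p = 0.0386, edgeR). Spg7 differed by 0.44 (adjusted p = 0.161, edgeR) and passed in 1 alternative, without WT muscle A57 (0.49, adjusted p = 0.0348, edgeR). Afg3l2 differed by -0.29, Htra2 by -0.28, Clpx by -0.06, Clpp by -0.05 and Yme1l1 by 0.11.

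Ratios of partner subunits within a library need no scaling between libraries, and 3 pairs were compared in each tissue with exact two-sided permutation tests, adjusted over the 6 comparisons. The log2 ratio of Afg3l2 to Spg7 counts in heart was 1.0 ± 0.08 (SD, n = 5) in WT and 1.77 ± 0.10 in Taz-KD, a ratio of 2.0 against 3.41. WT hearts lay between 0.94 and 1.09 and Taz-KD hearts between 1.66 and 1.91, and the difference of 0.77 gave p = 0.00794, the smallest these regroupings allow, and 0.0476 after adjustment in the exact test. The call was lost when medians were compared (difference 0.81, exact adjusted p = 0.286). In muscle the same log2 ratio was -0.44 ± 0.22 in WT and -0.42 ± 0.18 in Taz-KD (difference 0.02, exact adjusted p = 0.937). These are ratios of counts, not of levels per length.

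Barrel and lid, by contrast, gave no detectable change of ratio. The log2 ratio of Hspd1 to Hspe1 was 3.05 ± 0.19 in WT and 2.88 ± 0.15 in Taz-KD hearts (difference -0.17, exact p = 0.159, adjusted 0.476), and 1.65 ± 0.28 and 1.66 ± 0.18 in muscles (difference 0.01, exact p = 0.937). The log2 ratio of Clpx to Clpp was 1.99 ± 0.19 and 2.06 ± 0.20 in hearts (exact p = 0.571) and 1.44 ± 0.25 and 1.5 ± 0.19 in muscles (exact p = 0.643). Differences of this size lie within the spread between libraries, which does not show that the ratios were equal.

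**Figure D3:**
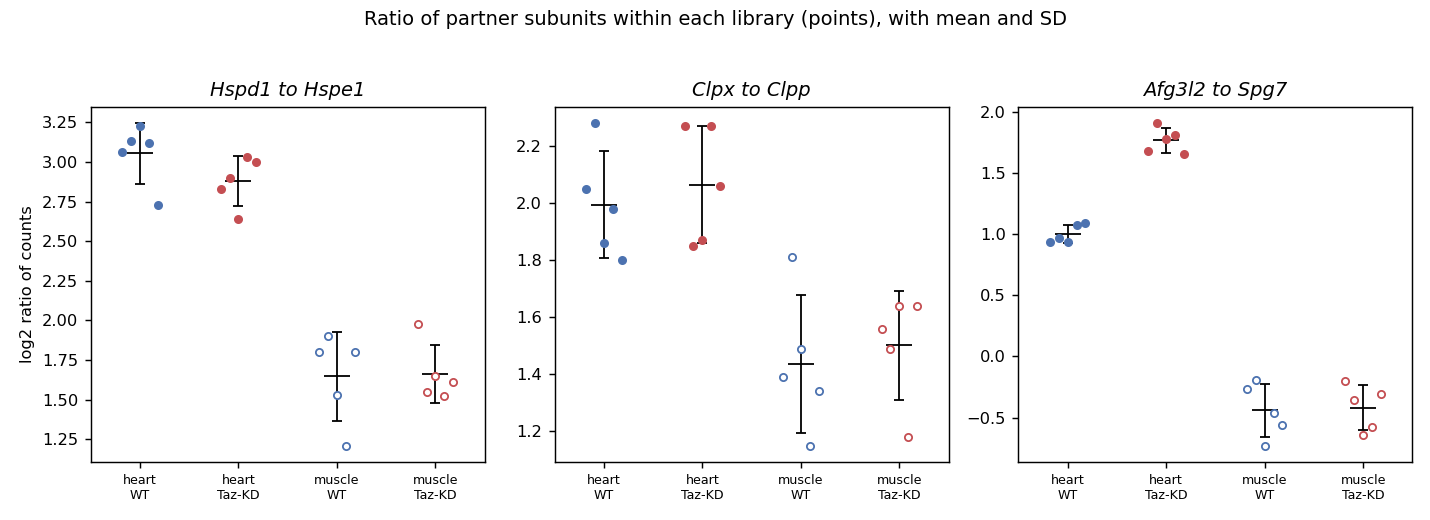
Points are the log2 ratio of counts (vertical axis) of 2 partner genes in each library, by tissue and genotype, with mean and SD over 5 libraries. For Afg3l2 to Spg7 all Taz-KD hearts lie between 1.66 and 1.91, above the WT hearts at 0.94 to 1.09 (exact adjusted p = 0.0476 for means and 0.286 for medians), while the genotypes overlap for the other pairs and in muscle.

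Per kilobase of exon, levels can be compared between genes, within the limit that the length used merges all annotated exons of a gene. In WT hearts Hspa9 (121 ± 10.2 CPM per kb, SD, n = 5) and Hspd1 (110 ± 12.3) led, with overlapping libraries, followed at a distance by Clpx (26.4 ± 2.74), Hspe1 (24.0 ± 4.64) and Lonp1 (22.6 ± 1.46), which overlapped one another. Clpp (18.9 ± 1.15 CPM per kb) lay below Lonp1 without overlap, then came Spg7 (14.9 ± 0.579), Afg3l2 (13.7 ± 1.11) and Yme1l1 (11.6 ± 0.614), each overlapping the next, and Htra2 was lowest (8.31 ± 0.43). In Taz-KD hearts Lonp1 moved from the fifth place to the third (107 ± 13.3 CPM per kb) without overlap with Hspd1 above it (190.0 ± 12.4) or Hspe1 below it (46.5 ± 6.44). Afg3l2 (20.1 ± 1.93 CPM per kb) then stood above Spg7 (12.9 ± 1.33) without overlap, although it had been below Spg7 in all 5 WT hearts. This crossing depends on the merged exon lengths, 9874 bases for Afg3l2 and 4518 bases for Spg7. By counts alone, Afg3l2 was above Spg7 in WT hearts already, at a ratio of 2.0.

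**Figure D4:**
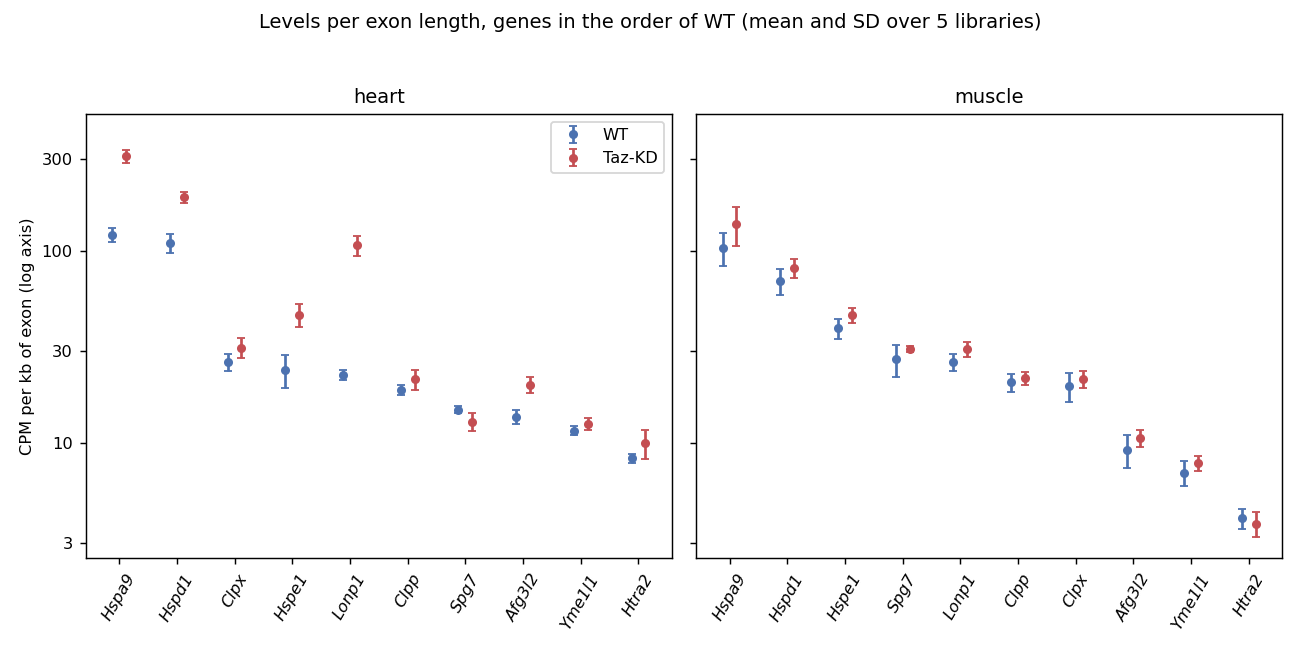
The level of each gene in CPM per kb of exon (vertical log axis, mean and SD over 5 libraries) is drawn in the order of the WT means of each tissue. In heart, Lonp1 rises from 22.6 to 107 CPM per kb and leaves its WT neighbours, whereas the order in muscle changes little between WT and Taz-KD.

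Set against the summed level of the 6 proteases with a catalytic site (Lonp1, Clpp, Yme1l1, Afg3l2, Spg7 and Htra2), Lonp1 made up 25.1% ± 0.511 in WT hearts and 58.2% ± 1.74 in Taz-KD hearts. The sum itself was 90.1 ± 4.24 CPM per kb in WT hearts and 184 ± 19.3 CPM per kb in Taz-KD hearts. The share of Spg7 was 16.6% ± 0.367 in WT hearts and 7.02% ± 0.574 in Taz-KD hearts. A share also falls when another gene of the sum rises, as for Afg3l2, whose share went from 15.2% ± 0.538 to 10.9% ± 0.561 although its level rose. The level of Spg7 itself was 14.9 ± 0.579 CPM per kb in WT hearts and 12.9 ± 1.33 CPM per kb in Taz-KD hearts. In muscles the share of Lonp1 was 27.9% ± 0.748 in WT and 29.2% ± 1.5 in Taz-KD, and Spg7 held a like share there (28.7% ± 3.15 and 29.3% ± 1.82). These shares carry no test and depend on the merged exon lengths, and transcript shares are not shares of protein.

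The order in WT muscles ran from Hspa9 (104 ± 20.6 CPM per kb) over Hspd1 (69.6 ± 10.7) and Hspe1 (39.7 ± 4.74) to Htra2 (4.05 ± 0.498). Spg7 (27.3 ± 5.16 CPM per kb) and Lonp1 (26.4 ± 2.63) overlapped in the next places, and in Taz-KD both had means of 30.8 CPM per kb. The pair of Clpp and Clpx overlapped in both genotypes. Levels were scaled separately in each tissue, so only orders within a tissue are compared.

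Other genes of mitochondrial protein handling were read from lists chosen by name. This list and those that follow were drawn up with earlier results of these data known, so their counts are no independent support. A list of 16 genes held cochaperones, binding partners and related mitochondrial proteins of the 10. Of these 16, 9 rose and none fell in heart, beside 14.4% higher and 10.3% lower of all genes. Their median log2 fold change was 0.27 beside -0.02 over all genes. The rises were led by Clpb, a disaggregase of the intermembrane space (58.7 ± 3.05 CPM in WT, 114 ± 10.3 in Taz-KD, log2 fold change 0.96, adjusted p = 1.16e-06, edgeR). Dnaja3, a J-domain cochaperone of Hspa9, rose by 0.73 on the log2 scale (adjusted p = 2.9e-05, edgeR) and Grpel2, a nucleotide exchange factor of Hspa9, by 0.68 (adjusted p = 0.00424, edgeR). Afg3l1, a further m-AAA subunit that is active in mice, rose by 0.28 (adjusted p = 0.00245, edgeR). In muscle, none of the 16 passed, although 15 had values above 0, beside 47.7% of all genes, and Dnaja3 reached 0.45 (adjusted p = 0.311, edgeR). The 16 values come from the same libraries and are not independent of one another, and their values without A33 and A55 are not given here.

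Among 11 other mitochondrial proteases and peptidases, 2 rose and 1 fell in heart, shares close to the 14.4% higher and 10.3% lower of all genes, and their median log2 fold change was 0.01. Immp2l, a subunit of the inner membrane peptidase, had a log2 fold change of 0.68 (adjusted p = 0.00295, edgeR) at 4.58 ± 0.719 CPM in WT hearts and 7.35 ± 1.13 CPM in Taz-KD hearts. Pitrm1, which degrades cleaved targeting peptides, rose by 0.35 on the log2 scale (adjusted p = 0.00642, edgeR). Oma1, the stress-activated inner membrane protease, averaged 25.8 ± 1.81 CPM in WT hearts and 20.3 ± 1.41 CPM in Taz-KD hearts and fell by 0.34 (adjusted p = 0.00369, edgeR). Its effect differed between tissues by 0.60 (adjusted p = 0.0417, edgeR), with a value of 0.19 in muscle.

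Chaperones outside mitochondria were compared as well. A list of 21 genes held 20 cytosolic chaperones and their regulator Hsf1. Of the 20 chaperones, 14 rose and 1 fell in heart, with a median log2 fold change of 0.45, beside 14.4% higher and 10.3% lower of all genes. Subunits of the chaperonin that folds actin and tubulin had the smallest adjusted p, with Cct5 at a log2 fold change of 0.77 (adjusted p = 3.83e-06, edgeR), Cct3 at 0.76, Cct2 at 0.74 and Cct8 at 0.57. Larger log2 fold changes were those of Hsp90aa1, the inducible cytosolic Hsp90 (1.25, adjusted p = 0.000283, edgeR), and the small heat shock protein Hspb1 (1.07, adjusted p = 0.000504, edgeR). Dnajb1, a J-domain cochaperone, was the one that fell, by 0.27 (adjusted p = 0.0328, edgeR). The 5 that did not pass in heart were Hspa1a (-0.44), Hspa1b (-0.39), Bag3 (-0.11), Dnaja1 (0.02) and Hsph1 (0.43). The 14 chaperones of the endoplasmic reticulum had a median of 0.09, and 2 rose, a share close to that of all genes, Dnajb9 by 0.66 (adjusted p = 0.00108, edgeR) and Dnajb11 by 0.24 (adjusted p = 0.0286, edgeR). None of these chaperones passed in muscle.

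Of 8 transcription factors and regulators named for the mitochondrial unfolded protein response, Atf5 (33.1 ± 6.60 CPM in WT hearts, 421 ± 46.0 in Taz-KD), Atf4 (36.9 ± 4.18 and 180.0 ± 34.5 CPM) and Ddit3 (11.1 ± 1.06 and 45.4 ± 5.47 CPM) rose in heart, and none fell. Their log2 fold changes were 3.67, 2.29 and 2.03, while 5 of the 8 did not pass and the median of the 8 was 0.10. Among all genes in heart, 14.4% were called higher and 10.3% lower. Hsf1, the regulator that binds heat shock elements and is also in the list of 21 genes, had a value of -0.07 in heart (adjusted p = 0.695, edgeR) and 0.11 in muscle. In muscle none of the 8 passed, and the effects of Atf5, Atf4 and Ddit3 differed between tissues by -2.96, -1.89 and -1.99 (adjusted p from 6.6e-06 to 0.0014, edgeR).

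Of 15 genes that mark mitochondrial content, 2 rose and 1 fell in heart, shares close to or below the 14.4% and 10.3% of all genes, with a median log2 fold change of -0.13. Vdac2, an outer membrane channel, rose by 0.29 on the log2 scale (adjusted p = 0.00235, edgeR) and Tomm20, an import receptor, by 0.33 (adjusted p = 0.00964, edgeR). Ndufs1, a subunit of complex I, fell by 0.47 (adjusted p = 0.00216, edgeR).

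**Figure D5:**
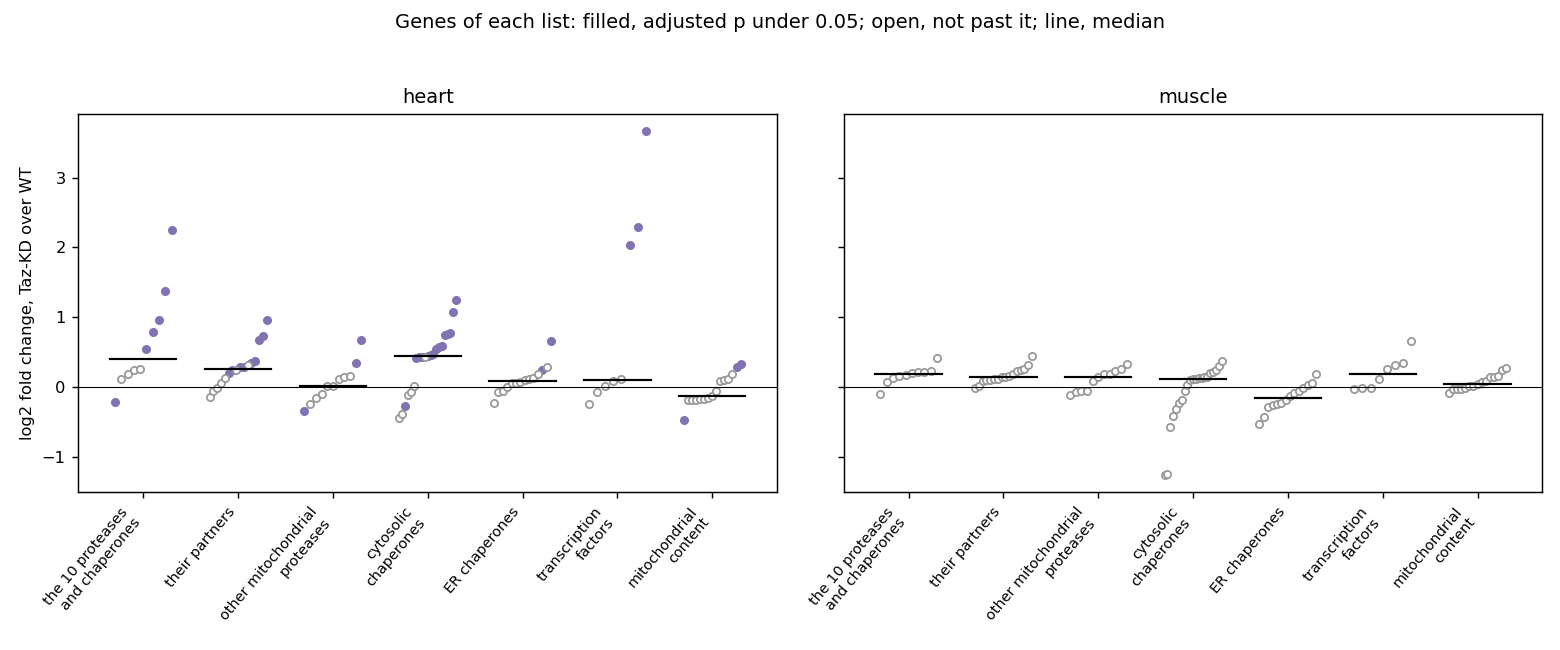
Each point is the log2 fold change of 1 gene (vertical axis) in heart or muscle, by list, filled where the adjusted p is under 0.05, and the line is the median of the list. In heart the 10 proteases and chaperones have a median of 0.41, the list labelled as their partners, which also holds related proteins, 0.27, and the mitochondrial content genes -0.13. In muscle no point is filled.

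The genes whose pattern over the 20 libraries was most like that of Lonp1 were sought among 8970 genes whose mean reached 5 CPM in both tissues, by the root mean square difference of log2 CPM after centring each gene on its WT mean per tissue. The nearest were Sars (0.11), Atf4 (0.15), Eprs (0.16), Nars (0.17) and Pmm1 (0.24). Sars, Eprs and Nars encode cytosolic aminoacyl-tRNA synthetases, which charge tRNAs with amino acids, and Pmm1 a phosphomannomutase. Their log2 fold changes in heart ran from 1.96 for Nars to 2.54 for Pmm1, beside 2.25 for Lonp1, and those in muscle from 0.29 for Pmm1 to 0.37 for Eprs, beside 0.22 for Lonp1. The search picked genes by these same libraries, so fold changes near that of Lonp1 follow from the choice and are no separate result. None of the other 9 genes was a candidate in this search, which left them out.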

How the data were processed

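RNA of 10 hearts and 10 femur muscles was sequenced as paired ends of 150 bp after removal of ribosomal RNA, from libraries that mark the strand. The authors aligned reads with STAR (default settings, GRCm38) and deposited unnormalized counts per gene from featureCounts 1.6.4, and used DESeq2 2.11.40.6 for their own tests. The strand setting, the treatment of reads mapping to several places and the annotation release are unknown here, since no source used here gives them. Counts were matched to symbols with GENCODE M21.

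Genes were kept with filterByExpr, scaled with TMM and tested with the robust quasi-likelihood test of edgeR 4.0.16 (R 4.3.3) per tissue, and for the interaction in one fit of 20 libraries, with Benjamini-Hochberg adjustment at 0.05. The script was tested on simulated data. Ratios and Taz were compared by exact permutation of libraries. Levels per length used merged exons. Alternatives were DESeq2 1.42.0, limma-voom (limma 3.58.1), other scalings and filters, and left-out libraries; thinning to the smallest library, a block of muscles with neighbouring animal numbers, and leaving out A33 and A55 or, for the interaction, R2 and R3, were added after seeing the data. The 10 genes and all lists were chosen with earlier results of these data known, so list counts are no independent support. All 10 genes, Taz, neighbours and pseudogenes with reads, up to 4 called genes with the smallest adjusted p per list, called genes against their list, and the 5 genes nearest Lonp1 are named. Hsf1, Mthfd2, Setd5, Ckm, Acta1, Tnnt3, Myh4, Hsp90aa1, Hspb1, Hspa1a, Hspa1b, Bag3, Dnaja1 and Hsph1 were added after their values were seen. Every library was used.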

Additional observations from a re-analysis of the deposited data

Results flagged for a closer look

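In 3 cases, a group of libraries held 1 library far from the other 4, by Dixon's gap test at its 95% critical value, among 44 groups tested over the 10 genes and Taz, and chance flags about 1 in 20 groups. Clpp in Taz-KD hearts measured 31.6 CPM in R1796, while the other 4 lay between 24.3 and 25.2 CPM. Clpx in WT muscles measured 89.7 CPM in A40, while the others lay between 59.6 and 66.5 CPM. Taz in Taz-KD muscles measured 15.2 CPM in A58, while the others lay between 12.7 and 13.4 CPM.

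The effect of the knockdown differed between tissues, by the interaction test, for Lonp1 (-1.96 on the log2 scale, muscle minus heart), Hspa9 (-0.89) and Hspe1 (-0.67).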

How the results depend on the processing

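The 5 rises in heart passed in all 23 alternatives, and no gene of the 10 passed in muscle in any of 23. Depth differed between the hearts, and after thinning to the smallest library 5 genes were called higher and none lower. The values of genes near 0 turned sign: Clpp in muscle was -0.07 with library sizes alone, a scaling that moved the median of all genes to -0.157 in muscle and to -0.205 for the difference between tissues (216 higher and 851 lower calls there, against 320 and 632), and Spg7 in muscle was -0.01 without A33 and A55. With 1 library left out, the difference between tissues ran from -0.12 to 0.03 for Clpp (above 0 without R1796), from -0.14 to 0.06 for Clpx (above 0 without A40) and from -0.01 to 0.16 for Yme1l1 (below 0 without A55). It was 0.01 for Clpx without R2 and R3, and for Yme1l1 -0.07 with library sizes alone and -0.04 without A33 and A55.

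One fit of all 20 libraries called 2087 genes in heart (4803 otherwise) and 167 in muscle (3 otherwise), DESeq2 called 145 in muscle and 1589 for the difference between tissues (952 otherwise). Leaving out 1 library gave 3 to 5 genes in muscle, with 5 without A52, and 607 to 2042 for the difference between tissues, with 607 without R1796 and 2042 without A57. Members called for that difference numbered 1 to 4 with 1 library left out, 1 of them without R3, R1792, R2 or R1796, and 1 without R2 and R3 together. The difference of medians gave 0.81 for Afg3l2 to Spg7 in heart (exact adjusted p = 0.286) and -0.18 for Hspd1 to Hspe1 in muscle. With 1 library left out, the muscle differences ran from -0.09 to 0.08 for Hspd1 to Hspe1, from -0.01 to 0.16 for Clpx to Clpp and from -0.05 to 0.09 for Afg3l2 to Spg7. The cause of these shifts was not tested. The groups share no replicate numbers, but each WT muscle has a Taz-KD neighbour by animal number (such as A33 and A34), without a meaning in the labels. With these neighbours as a block, 1 gene was called in muscle and none of the 10. Lonp1 and Hspe1 were above the WT neighbour in 5 of 5 pairs (adjusted p = 0.543 for each, edgeR), and the others in 1 (Htra2) to 4 pairs. The share of all genes above the neighbour in every pair was not counted, so the pair counts have no background and are no result. Deviations from the group means correlated from -0.43 to 0.43 within neighbours, above 0.1 in 1 of 5 pairs.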
